A study of Mus musculus with 4 samples.

Results

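The genes described here are 10 mouse genes of mitochondrial biogenesis and dynamics, chosen by name: the coactivator genes Ppargc1a and Ppargc1b, the transcription and replication genes Nrf1, Tfam, Tfb2m and Polg, the fusion genes Opa1, Mfn1 and Mfn2, and the fission gene Dnm1l. All 10 were found among the 21900 protein-coding gene models used. The study mapped the stress-responsive transcription factor ATF4 on chromatin of heart ventricle from mice aged 4 weeks, and its title places the work in cardiomyocytes in vivo. It has 2 ATF4 pull-down samples, titled ATF4-bio1 and ATF4-bio2, and 2 input samples, whose values are not analysed here. The antibody field reads AAV for the pull-down samples and none for the inputs, and per the labels' protocols the pulled-down chromatin was recovered on streptavidin beads. Whether the protein recovered was endogenous or vector-borne, which strain or promoter was used, and whether the samples came from separate animals are not given in the sources used here. There was 1 condition, so the comparisons below are between genes, between replicates and with all protein-coding genes. An SD of 2 replicates measures only the spread between these samples, which may be technical.

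A peak is a stretch of the genome with more pulled-down fragments than a background level. The authors deposited a peak list for each pull-down sample and a series-wide list, which is named as a set of peaks reproduced between replicates. Its 41639 peaks had a median fold enrichment of 13.7, with quartiles of 10.6 and 19.5. The fold was taken over a constant background per sample and not over input, so a peak alone is no proof of ATF4 binding. Read depth is unknown. The labelled tissue was checked by series-wide peaks no more than 1 kb from an end of the gene model, which 34.9% of all protein-coding genes carried. All 10 cardiomyocyte markers looked at, Myh6, Tnnt2 and Ryr2 among them, carried one. So did 1 of 5 endothelial, 2 of 5 fibroblast, 1 of 5 immune and 0 of 5 neuronal markers. Peaks at gene ends are not RNA levels.

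Mitochondrial biogenesis is driven by the coactivators PGC-1 alpha and PGC-1 beta, the products of Ppargc1a and Ppargc1b, which dock on factors such as NRF1 and the estrogen-related receptors at nuclear genes for mitochondrial proteins. Among those targets are TFAM and TFB2M, which open transcription of the mitochondrial genome, while POLG copies it. OPA1 fuses the inner membrane, MFN1 and MFN2 fuse the outer membrane, and DRP1, the product of Dnm1l, pinches mitochondria apart. The adult heart holds a dense mitochondrial network, and the integrated stress response is a known reporter of trouble in it.

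Every one of the 10 genes carried a series-wide peak at an end of its gene model or at a start in the RefSeq promoter table, both taken with 1 kb, against 37.4% of all protein-coding genes. The sequence before the start is shown for the genes with the 5 highest folds there, since these are the stretches on which the strongest start peaks lay. Each line gives the 150 bases before the RefSeq start (GRCm38.p6, the assembly of mm10), 5′ to 3′ on the strand of the gene. Capitals mark matches to the motifs named after them.
Polg (chromosome 7, 79466274 to 79466423, minus strand): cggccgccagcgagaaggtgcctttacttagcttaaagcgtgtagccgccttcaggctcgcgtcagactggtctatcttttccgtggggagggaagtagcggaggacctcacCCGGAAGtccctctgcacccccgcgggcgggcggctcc
Tfam (chromosome 10, 71238045 to 71238194, minus strand): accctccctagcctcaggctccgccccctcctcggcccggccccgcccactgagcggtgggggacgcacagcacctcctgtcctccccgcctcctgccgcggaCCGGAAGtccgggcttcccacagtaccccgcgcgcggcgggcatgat
Opa1 (chromosome 16, 29579184 to 29579333, plus strand): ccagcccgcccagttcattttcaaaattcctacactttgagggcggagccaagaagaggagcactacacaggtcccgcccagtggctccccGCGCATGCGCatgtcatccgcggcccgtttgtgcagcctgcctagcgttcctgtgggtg
Ppargc1a (chromosome 5, 51567726 to 51567875, minus strand): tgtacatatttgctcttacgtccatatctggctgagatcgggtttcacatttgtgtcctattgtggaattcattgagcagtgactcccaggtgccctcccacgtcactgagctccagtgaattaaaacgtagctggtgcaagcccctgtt
Tfb2m (chromosome 1, 179546277 to 179546426, minus strand): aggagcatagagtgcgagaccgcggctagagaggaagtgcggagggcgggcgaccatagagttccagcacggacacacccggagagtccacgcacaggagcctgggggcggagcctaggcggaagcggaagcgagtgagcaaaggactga

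The motifs were searched on both strands of the 300 bp from 250 bases before to 50 after each start, for the 9 of the 10 genes in the promoter table. TGATGNAA, the composite element of ATF4 with a C/EBP partner, matched 0 of the 9, against 4.13% of all 17492 genes in the table. The cAMP response element TGACGTCA (2.54% of all genes), its variant TGACGCAA (0.732%), the element TCAAGGTCA of the estrogen-related receptors (0.377%) and the E-box CACGTG (8.91%) also matched 0 of the 9. GCGCATGC, the core of the element bound by NRF1, matched Opa1 and Tfb2m, against 3.94% of all genes. Among genes with a CpG-rich promoter, as defined below, the share was 6.98%. In Opa1 it matched on both strands, as overlapping matches whose first bases lie 59 and 57 bases before the start. In Tfb2m its first base is base 14 after the start. The ETS core CCGGAAG is bound by the factor GABP and was added to the search after the data were seen. It matched Polg, Tfam, Mfn1 and Dnm1l, against 12.9% of all genes and 21.4% of those with a CpG-rich promoter. Such matches describe letters in these windows, and the absence of a match says only that the letters are not there. Intragenic peaks were not searched.

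The base composition of these starts was read in the same windows. A promoter was called CpG-rich with at least 50% GC and an observed-to-expected CpG ratio of at least 0.6, which 48.3% of the genes in the table met. Of the 9 genes, 6 met it at one start or more, and the exceptions were Ppargc1a, with 48.7% GC and a CpG ratio of 0.282, Mfn1 with 0.523 and Tfam with 0.586. All 9 carried a series-wide peak near a RefSeq start (within 1 kb), against 35.4% of all genes in the table. The share was 57.0% among genes with a CpG-rich promoter and 15.3% among the others. A large part of CpG-rich promoters thus carried a peak, and the count of the 9 genes was not tested against them.

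Folds at the starts differed by more than 3 times among the 10 genes. The strongest start peak lay at Polg, the gene of the catalytic subunit of the mitochondrial DNA polymerase (model on chromosome 7, 79446231 to 79467911), with 30.0 in replicate 1 and 31.5 in replicate 2 (30.7 ± 1.04, SD, n = 2). Of all genes with a peak at an end or start, 93.6% had a lower series-wide fold. Its summit lay 101 bp before the start in the series-wide list, and the 763 bp peak ran over the whole stretch printed for Polg.

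Tfam, whose product packages the mitochondrial genome and starts its transcription (chromosome 10, 71225468 to 71238328), had 24.5 in replicate 1 and 24.8 in replicate 2 (24.7 ± 0.227, SD, n = 2), above 87.9% of genes with such a peak. The peak was centred on the start, with its summit 8 bp before it. Opa1 (chromosome 16, 29579281 to 29663127) had 20.5 and 16 (18.2 ± 3.21, SD, n = 2), in a peak of only 322 bp whose summit lay 12 bp after the start. The start peak of Tfb2m, which encodes the other factor of mitochondrial transcription (chromosome 1, 179528052 to 179546305), had 11.0 and 16 (13.5 ± 3.51, SD, n = 2). The replicates of Tfam and Polg lay close together, whereas those of Opa1 and Tfb2m were apart in opposite directions.

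The start peak of Ppargc1a lay between those of Opa1 and Tfb2m by its mean, and the others lay lower. Ppargc1a had 19.5 in replicate 1 and 16 in replicate 2 (17.7 ± 2.51, SD, n = 2), with its summit 130 bp before the RefSeq start at 51567725 in the series-wide list and 594 bp before it in replicate 2. Mfn2 (chromosome 4, 147873586 to 147904909), whose product also tethers mitochondria to the endoplasmic reticulum, had 10 and 13.3 (11.6 ± 2.33, SD, n = 2). Mfn1 (chromosome 3, 32529443 to 32579225) had 10.5 and 9.75 (10.1 ± 0.529, SD, n = 2). At Nrf1, which encodes nuclear respiratory factor 1 (chromosome 6, 30047985 to 30153458), the values were 10 and 9.75 (9.88 ± 0.176, SD, n = 2). Among the 9 genes in the promoter table, Dnm1l (chromosome 16, 16312228 to 16359038) had the lowest mean, with 8.5 and 9.31 (8.90 ± 0.571, SD, n = 2). In both replicates Mfn2, Mfn1, Nrf1 and Dnm1l stayed below the median of 13.5 that all genes with such a peak had in the series-wide list, which keeps the higher of both folds. By their means the order ran Polg, Tfam, Opa1, Ppargc1a, Tfb2m and then the rest. The replicate ranges of Opa1 and Ppargc1a overlapped, and the range of Tfb2m, from 11 to 16, touched both and overlapped that of Mfn2. Those of Mfn2, Mfn1 and Nrf1 overlapped. At Ppargc1b the highest peaks within 1 kb of a model end had 9 in replicate 1 and 8.42 in replicate 2. That range overlapped the range of Dnm1l and lay below those of Mfn1 and Nrf1. From Opa1 down to Nrf1, neighbours in the order thus did not differ beyond their spread. In both replicates Polg and Tfam lay above all others, and Ppargc1b and Dnm1l below all others. The lower separation was narrow. Replicate folds came in discrete steps, and in replicate 2 the 9.31 of Dnm1l was the next step below the 9.75 of Mfn1 and Nrf1. In replicate 1 Ppargc1b also had a peak with 10, equal to Nrf1, more than 1 kb from the model end. The place of Ppargc1b and Dnm1l below Mfn1 and Nrf1 was therefore not settled.

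**Figure D1:**
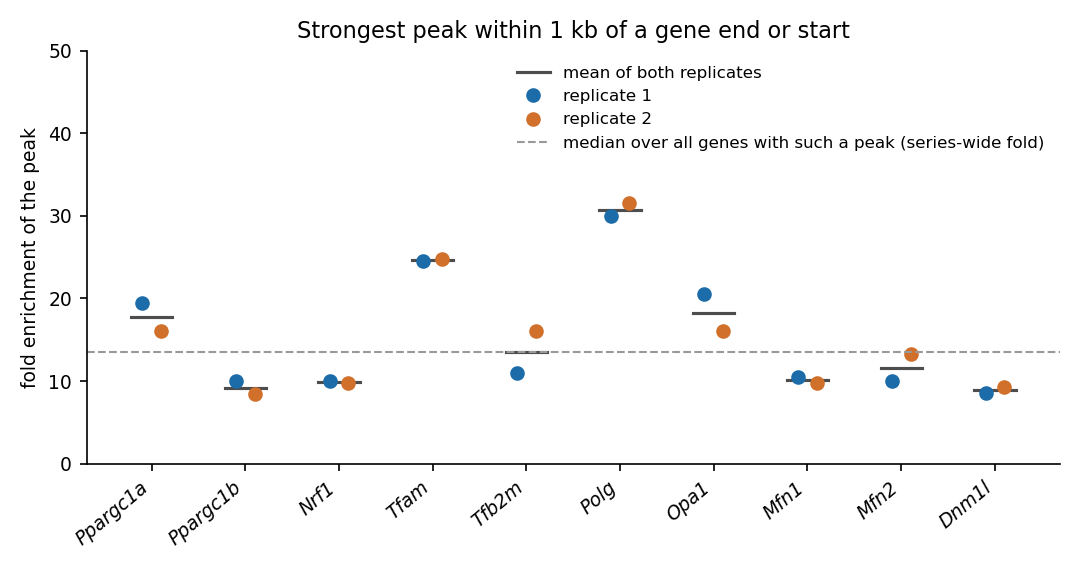
Fold enrichment (vertical axis) of the strongest peak within 1 kb of a gene end or RefSeq start for each of the 10 genes, in replicate 1 (blue) and replicate 2 (orange), with the mean as a bar and the median of 13.5 over all genes with such a peak as a dashed line. Polg, Tfam, Opa1 and Ppargc1a lie above the line in both replicates, and Ppargc1b, Nrf1, Mfn1, Mfn2 and Dnm1l below it. For Ppargc1b the replicate 1 point of 10 is part of the wide series-wide peak and lies more than 1 kb from the model end. Within 1 kb replicate 1 had 9.

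Where the start lies in the gene model decided the count at gene ends. With model ends alone, 8 of the 10 genes carried a peak of the series-wide list within 1 kb, against 34.9% of all genes. The exceptions were Polg and Ppargc1a, whose models run on upstream of the start in the promoter table. The replicate lists gave 8 in replicate 1 (48.2% of all genes) and 9 in replicate 2 (50.2%). With ends and starts together both replicate lists gave 10 of 10 (51.1% and 53.1% of all genes). A window of 5 kb around the ends took in all 10 (47.4% of all genes), and asking for the summit within 1 kb left 7 (32.8%), since the summit of the wide peak at Ppargc1b lies deeper in the gene. Among the 20% of peaks with the highest fold, 1 gene, Tfam, had a peak at a model end (5.66% of all genes).

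Both peaks at the Tfb2m start, the second with 8 in replicate 1 and 8.42 in replicate 2, also lay within 1 kb of an end of Cnst, which encodes consortin, and the summit of the second lay inside the Cnst model. Peaks at the starts of the other 9 genes had no end of another protein-coding gene model within 1 kb.

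Beyond their starts the genes differed far more. Within the gene models with 20 kb on either side, the 10 genes held 73 series-wide peaks, and 52 of these (71.2%) belonged to the coactivator genes Ppargc1a and Ppargc1b. The 4 transcription and replication genes held 8, the 3 fusion genes 11 and Dnm1l 2. All 10 genes had at least 1, against 68.2% of all protein-coding genes, and so they did in replicate 1 (78.0% of all genes), in replicate 2 (79.2%) and in the series-wide list with flanks of 5 kb (55.8%). Ppargc1a, Ppargc1b, Tfam, Polg and Mfn2, 5 of the 10, held a peak among the 20% with the highest fold (26.4% of all genes). The median gene model of the 10 was 48.3 kb long, against 17.1 kb over all genes, and long windows hold more peaks. Counts are therefore also given per 100 kb of window, for which the median over all genes was 1.99 and the upper quartile 4.43.

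**Figure D2:**
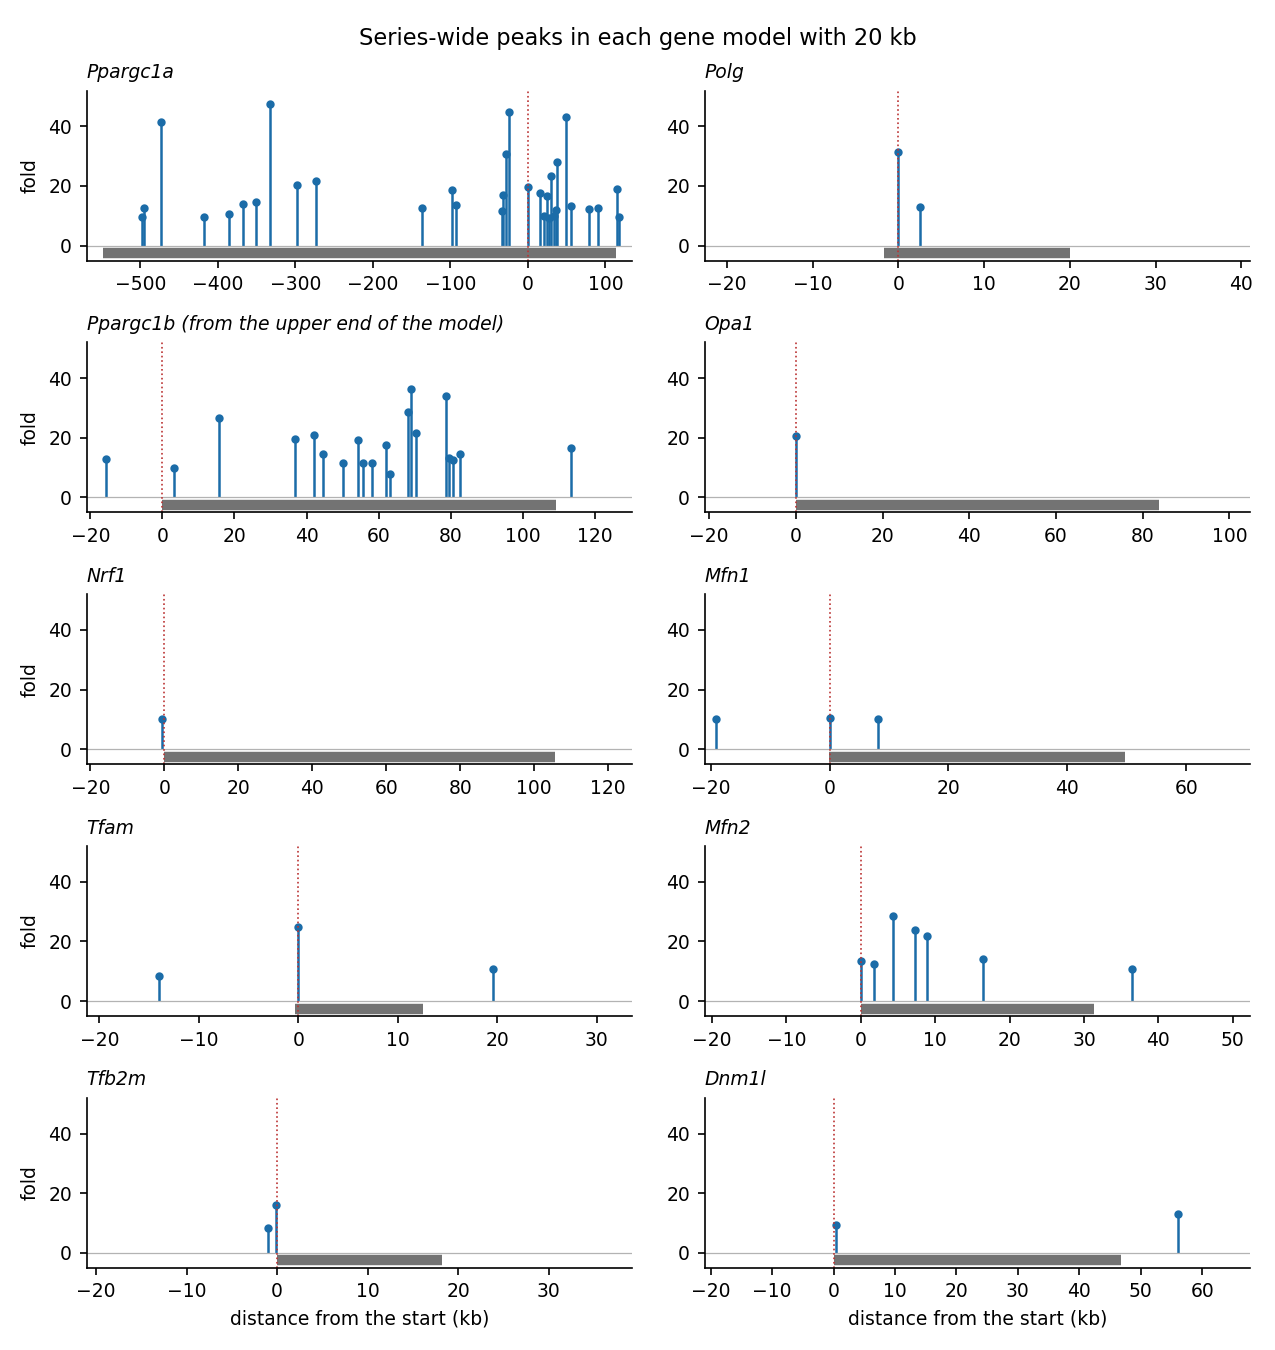
Series-wide peaks (stems, height is the fold enrichment) by the distance of the summit from the RefSeq start in kb, with the gene model as a grey bar and the start as a dotted line; for Ppargc1b distances run from the upper end of the model. Ppargc1a holds peaks on both sides of its start, sparser beyond 50 kb upstream, and Ppargc1b has most of its peaks in a run of 45.9 kb. Mfn2 holds a group within its first 17 kb, and Nrf1 and Opa1 a single peak at the start.

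Ppargc1a, the gene of PGC-1 alpha, held 32 series-wide peaks over a model of 662 kb (chromosome 5, 51454249 to 52115853). Its window had 4.56 per 100 kb, a density above that of 76.5% of genes. The RefSeq start lies well inside this model, which goes on for a further 548 kb upstream. The 113 kb from the start to the lower end of the model held 12 peaks, or 10.6 per 100 kb. The first 50 kb upstream held 5 (10 per 100 kb), and the 498 kb beyond them held 13 (2.61 per 100 kb). The first pair of densities was thus about 4 times that of the far upstream stretch, all of it inside the same gene model.

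The highest folds of all 10 genes were found at Ppargc1a, at 4 peaks that all lay away from the start. Their series-wide fold, the higher of both replicates, was at least 40. The peak with the highest fold (51899257 to 51900315) lay 332 kb upstream, with 47.5 in replicate 1 and 43.4 in replicate 2 (45.5 ± 2.87, SD, n = 2). A peak 23.8 kb upstream (51591287 to 51592578) had 41.0 and 44.8 (42.9 ± 2.66, SD, n = 2). On the other side, a peak 49.7 kb downstream of the start (51517638 to 51518205) had 39.5 and 43.0 (41.2 ± 2.47, SD, n = 2). The fourth lay 473 kb upstream (52040267 to 52041323), with 41.5 and 33.7 (37.6 ± 5.53, SD, n = 2). Each had more than 2 times the fold of the start peak in both replicates. Of the 32 peaks, 30 had their summit inside the Ppargc1a model, so no other gene could lie nearer to these. The 2 in its flanks also had Ppargc1a as the nearest protein-coding gene model. The other 5 peaks with a series-wide fold of at least 20 lay 28.2 kb (30.3 ± 0.413), 298 kb (20.2 ± 0.275) and 273 kb (19.0 ± 3.61) upstream and 38.1 kb (27.1 ± 1.31) and 29.3 kb (21.2 ± 3.18) downstream (SD, n = 2 each).

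Mfn2 held 7 series-wide peaks in a window of 71.3 kb, and its 9.81 per 100 kb were above 95.8% of genes. Unlike at Polg and Tfam, its strongest peaks lay after the start. The peak 4.26 kb downstream (147900369 to 147900964) had 28.5 in replicate 1 and 26.6 in replicate 2 (27.5 ± 1.35, SD, n = 2). Those 7.34 kb and 8.85 kb downstream had 21.7 ± 3.14 and 18.1 ± 5.10 (SD, n = 2 each). The latter rested on 14.5 in replicate 1 and 21.7 in replicate 2, at summits 8.42 and 8.41 kb downstream. A separate replicate 2 peak at 8.94 kb had 5.76. Folds of 11.6 ± 1.32 at 1.83 kb and 13.4 ± 0.810 at 16.4 kb (SD, n = 2 each) lay lower. Those 3 peaks between 4.26 and 8.85 kb exceeded the start peak of Mfn2 in both replicates. The remaining peak, at 10.6 ± 0.0974 (SD, n = 2), lay inside Miip, a neighbouring gene.

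Nrf1 and Opa1 showed the opposite layout. Their models of 105 kb and 83.8 kb held no series-wide peak away from the start, and their 0.687 and 0.807 peaks per 100 kb were below the median of all genes. The replicate lists added weak peaks at Nrf1 that were not in the series-wide list: one 1.27 kb (replicate 1, 9.50) or 1.35 kb (replicate 2, 5.76) after the start, and one 60.3 kb after it with 9 and 5.32. At Opa1, overlapping peaks with 10.5 and 7.09 lay upstream, with summits 18.5 and 18.6 kb from the start. Inside the Opa1 model, replicate 1 alone had a peak 50 kb after the start (8.5) and replicate 2 alone one at 78.6 kb (5.32).

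The other genes held 2 or 3 series-wide peaks each. Tfam had peaks 19.6 kb downstream of its start (10.1 ± 0.805, SD, n = 2) and 14 kb upstream (7.71 ± 1.01, SD, n = 2), the latter nearer to the ubiquitin-conjugating enzyme gene Ube2d1. Polg had a peak 2.54 kb after its start (11.6 ± 1.98, SD, n = 2). Mfn1 had one 8.22 kb after its start (9.10 ± 1.55, SD, n = 2) and one inside its neighbour Zfp639 (10.1 ± 0.138, SD, n = 2). The peak in the flank of Dnm1l (11.2 ± 2.61, SD, n = 2) lay at the end of Yars2, the mitochondrial tyrosyl-tRNA synthetase gene. In total 67 of the 73 peaks had the gene itself as their nearest protein-coding gene, which holds by definition for a summit inside the gene model.

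Ppargc1b, the gene of PGC-1 beta (chromosome 18, 61291445 to 61400756), held 20 series-wide peaks in a window of 149 kb. Its 13.4 peaks per 100 kb exceeded the density of 98.7% of genes and were the highest among the 10. Inside the model, 16 peaks followed each other over 45.9 kb (summits from 61318076 to 61363967) with no gap above 8.19 kb, at a median fold of 16.1. The strongest of them (61331393 to 61332460) had 36.5 in replicate 1 and 24.4 in replicate 2 (30.4 ± 8.57, SD, n = 2). Another (61321917 to 61322689) had 34.0 and 30.6 (32.3 ± 2.42, SD, n = 2), and the peak next to the strongest (61332552 to 61333184) had 28.5 and 26.2 (27.3 ± 1.66, SD, n = 2). By their means the second of these was the highest, so the order of the first pair depends on the replicate.

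The upper end of the Ppargc1b model carried a different kind of peak, 4169 bp wide in the series-wide list against a median width of 441 bp, and low, with 10 in replicate 1 and 8.42 in replicate 2 (9.21 ± 1.12, SD, n = 2). Each replicate list split it into 3 peaks, and these values are those of the highest. In replicate 1 that peak lies more than 1 kb from the model end, and the peak at the end itself (61400187 to 61400981) had 9. The promoter table used has no entry for Ppargc1b. A peak 15.8 kb inside the model from this end (61384691 to 61385133) had 13.5 and 26.6 (20.0 ± 9.26, SD, n = 2), the widest disagreement between replicates among the 73 peaks. The series-wide fold of 26.6 there is that of replicate 2 alone.

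**Figure D3:**
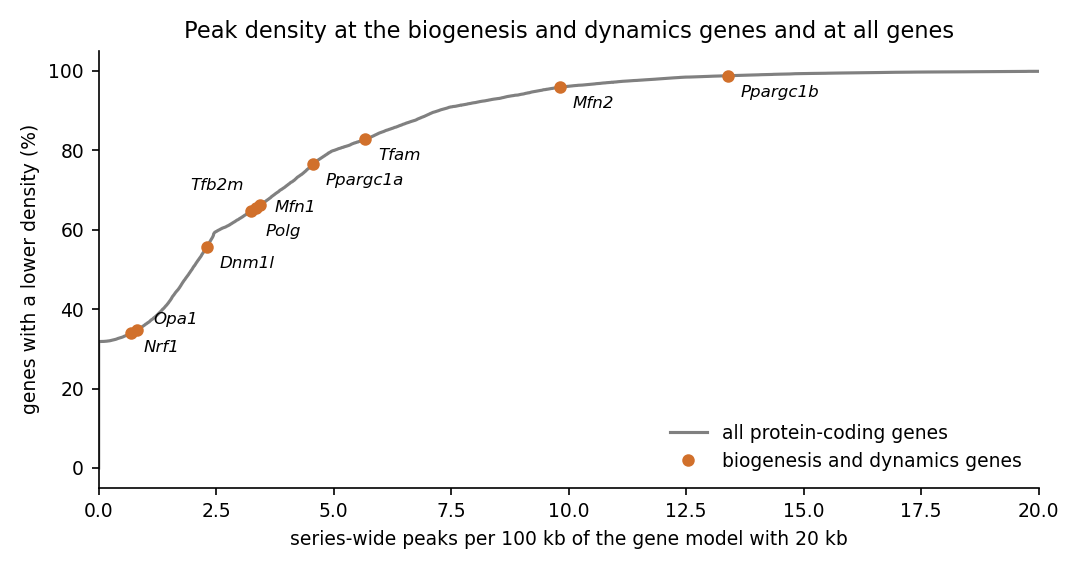
Series-wide peaks per 100 kb of the gene model with 20 kb (horizontal axis, shown to 20) against the percentage of protein-coding genes with a lower density, for all 21900 genes (grey line) and the 10 genes (orange points). Ppargc1b at 13.4 and Mfn2 at 9.81 lie at the upper end, and Nrf1 and Opa1 below 1.

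The replicates were compared over the same windows. All 73 series-wide peaks had a peak in both replicate lists, a property that the series-wide list favours. So had 40643 of all 41639 series-wide peaks. Their folds in the replicates were a median of 1.2 times apart, against 1.18 times over the 40643 series-wide peaks found in both, and 93.2% were within 1.5 times of each other, against 89.6%. The median log2 ratio of replicate 1 to replicate 2 was -0.02, and 36 of the 73 were higher in replicate 1. Of the 5 peaks more than 1.5 times apart, 4 lay at Ppargc1b and 1 at Ppargc1a.

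The replicate lists held 140 and 145 peaks in these windows, of which 110 (78.6%, 95% exact Clopper-Pearson interval 70.8% to 85.1%) and 112 (77.2%, 69.5% to 83.8%) overlapped a peak of the other replicate by at least 1 bp. Over all peaks the shares were 81.2% and 72.1%, both inside these intervals. The interval covers counting error only, and peaks of 1 gene are not independent. The peaks without a partner were low, between 5.50 and 10 in replicate 1 and between 5.32 and 9.75 in replicate 2, and none of them was in the series-wide list.

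**Figure D4:**
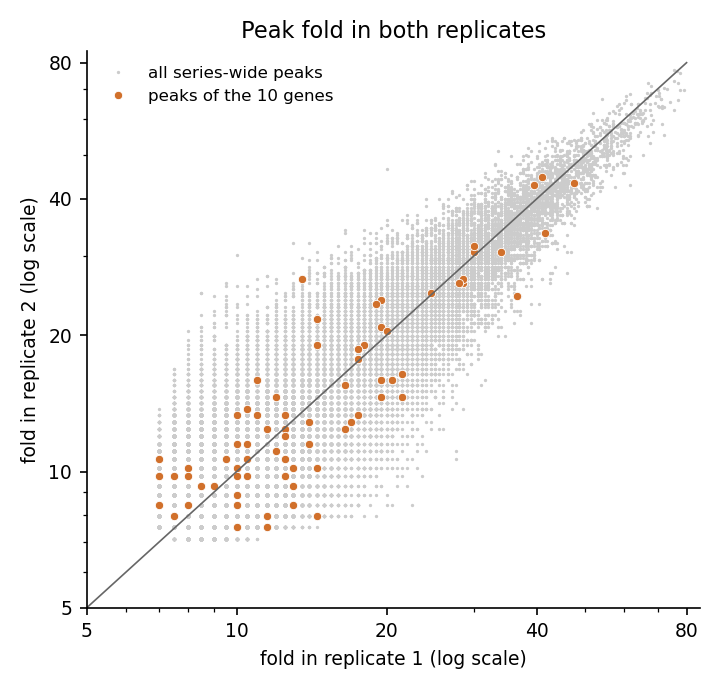
Fold in replicate 1 against fold in replicate 2 (both log scales) for the 40643 series-wide peaks found in both lists (grey) and for the 73 peaks of the 10 genes (orange), with the line of equal folds. The 4 orange points at the upper right are the peaks of Ppargc1a with a series-wide fold of at least 40, and most others lie near the line.

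Other genes of the pathway were taken from 5 lists of 69 genes in all. At gene model ends, again with 1 kb, 48 of the 69 (69.6%) carried a series-wide peak, against 34.9% of all protein-coding genes. Their median fold was 12.5, against 13.3 over all genes with such a peak. Neither difference was tested. A peak near a RefSeq start was found at 57.0% of all genes with a CpG-rich promoter and at 15.3% of the others. The base composition of the 69 genes was not read, so their share was not set against that of CpG-rich promoters.

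Coactivator partners and regulators had a peak at 11 of 17 genes. Pprc1, the remaining member of the PGC-1 family, stood apart with 44.0 in replicate 1 and 48.8 in replicate 2 (46.4 ± 3.36, SD, n = 2; chromosome 19, 46055983 to 46056845), above each of the 10 start peaks. The receptor gene Esrrb had 19.7 ± 1.65, the GABP subunit gene Gabpb2 19.2 ± 2.36 in a peak also at an end of Mllt11, and the muscle regulator Perm1 19.0 ± 1.38 (SD, n = 2 each). Esrrg and Gabpb1 lacked a series-wide peak at a model end, but had 2 and 1 within 1 kb of a RefSeq start, and Esrrg had 23 in its model with 20 kb.

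Mitochondrial DNA transcription genes had a peak at 5 of 7, all with a series-wide fold of at most 14.2. Mterf1a had 12.3 ± 2.60, Tefm, an elongation factor gene, 11.6 ± 1.32, Mterf3 11.3 ± 0.963 and Mterf4 11.1 ± 3.04 (SD, n = 2 each); the peaks of Mterf3 and Mterf4 also lay at ends of Ptdss1 and Sned1. Polrmt, the mitochondrial RNA polymerase gene, and Mterf2 lacked a series-wide peak there, but both had 1 in each replicate list. The longer replicate lists hold a peak there at 48.2% (replicate 1) and 50.2% (replicate 2) of all genes. Replication and upkeep genes had a peak at 12 of 16. Slc25a4, the heart isoform of the adenine nucleotide carrier, had 39.2 ± 4.00, Dguok, of nucleotide salvage, 23.1 ± 1.97, the single-strand binding protein gene Ssbp1 15.9 ± 2.64 and Polg2, of the accessory polymerase subunit, 12.1 ± 2.69 in a peak also at an end of Ddx5 (SD, n = 2 each). Dna2 had 0 in all 3 lists, and Primpol had 1 in each replicate list only.

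Genes of fusion and inner membrane shape had a peak at 9 of 14. Chchd3 and Immt, which encode parts of the complex that forms cristae junctions, had 27.3 ± 1.66 and 24.3 ± 7.38 (SD, n = 2 each), followed by Stoml2 with 15.6 ± 2.99 and the prohibitin gene Phb2 with 12.8 ± 2.42 (SD, n = 2 each), whose peaks also lay at ends of Fam214b and Emg1. Apool and Chchd6 had a peak there in both replicate lists but not in the series-wide list. Fission and transport genes had a peak at 11 of 15. Rhot1, the gene of the transport GTPase Miro1, had 33 in replicate 1 and 42.1 in replicate 2 (37.6 ± 6.44, SD, n = 2). Mief2, whose product recruits DRP1 to mitochondria, had 25.4 ± 0.501 in a peak also at an end of Flii, Mtfp1 20.5 ± 0.745 and Inf2, an actin-nucleating formin gene, 15.2 ± 6.68 (SD, n = 2 each). Mtfr1 and Mtfr2 had 0 in the series-wide list and 1 in each replicate list.

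**Figure D5:**
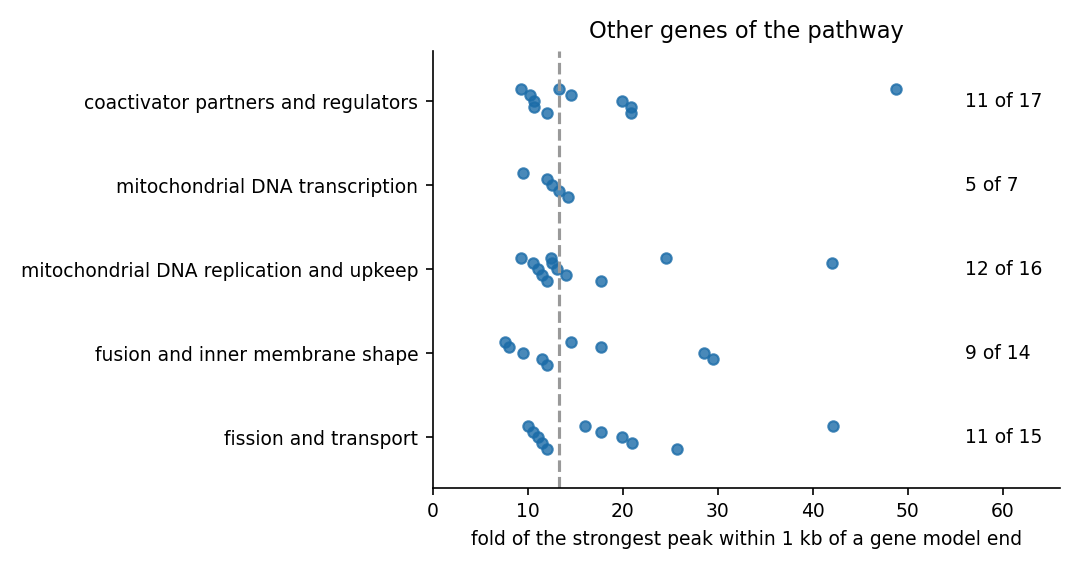
Series-wide fold of the strongest peak within 1 kb of a gene model end (horizontal axis) for each gene with such a peak in the 5 lists, with the number of genes with a peak at the right and the median of 13.3 over all genes as a dashed line. Pprc1, Rhot1 and Slc25a4 lie above 40, and most other genes between 7 and 22.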

How the data were processed

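Peaks were analysed as deposited. Per the submitters' processing notes, Bowtie2, MACS2, deepTools and mm10 were involved; their roles and versions are not given in the sources used here. The deposited replicate lists give summits and, from the values, −log10 of a p-value or a q-value, without saying which; the deposited series-wide list gives a fold ratio, used to describe and rank peaks. Value columns left unmapped numbered 0. Coordinates are 1-based. Peaks identical in a replicate list and the series-wide list numbered 17404 and 21047, after leaving out 16 identical in both replicates. They gave 1 fold for every −log10 value, with 0 exceptions. All replicate folds were read from the −log10 values by this relation. The 4 and 5 lowest values, which are folds below the series-wide minimum of 7.50, continued the steps downwards. In the replicates 2 and 9 values were interpolated, with lowest folds of 66.5 and 60.7.

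Gene models and promoter sequences are RefSeq's for GRCm38.p6; models carry no strand or exons, so exons and introns were not told apart. No significance test was run: there was 1 condition, and the genes, lists and windows were chosen with earlier results of these data known. Named were all 10 genes, and in each wider list up to 4 genes with the highest series-wide fold and the first 2 alphabetically without a peak. Overlap lookups were tested on simulated data. Alternatives were windows of 500 bp and 5 kb, gene bodies with 5 kb or alone, summits, the 50% and 20% of peaks with the highest fold, starts alone, reciprocal overlap of 50% and each replicate alone; ends or starts together, the CpG-rich background and the ETS core were added after seeing the data. Software: SciPy 1.17.1, pandas 2.3.3, NumPy 2.4.6 and Matplotlib 3.10.9 under Python 3.11.15.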

Additional observations from a re-analysis of the deposited data

How the results depend on the processing

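The 8 genes with a peak at a model end became 3 with the 50% of peaks of highest fold and 1 with the top 20%, and the 48 genes of the wider lists became 20 and 7; over all protein-coding genes those shares fell to 16.7% and 5.66%. With windows of 500 bp or 5 kb, summits, starts alone or each replicate alone, the counts stayed within 1.5 times. The wider lists had 44 and 54 genes with 500 bp and 5 kb, 45 with summits, 43 with starts alone, and 59 and 61 in replicates 1 and 2. The shares over all genes moved as well, from 34.9% to 31.8%, 47.4%, 32.8%, 35.4% (of genes in the promoter table), 48.2% and 50.2%, in that order. With the top 20% of peaks, 5 of the 10 genes had a peak in the gene body with 20 kb, against 26.4% of all genes, and the 73 peaks became 18. The replicate lists alone held 140 to 145 peaks there, since they also hold weaker peaks. The shares found in both replicates were 62.9% and 60.7% with a reciprocal overlap of 50%, and 96.3% and 95.2% for the 50% of each list with the highest folds. The median of the highest folds at model ends, 11.9, was 9.75 to 10.3 with 1 replicate left out; the 9.75 of replicate 2 is over 9 genes, since Ppargc1a joins with a peak of 6.65. It was 17.8 with a window of 5 kb, which takes in other peaks. No paired analysis was possible because the processed files used here hold pull-down peaks only and no result comes from a test. Read depth is unknown, so what it limits was not tested.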

Other observations

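Weak peaks upstream of Tfb2m recurred between replicates without entering the series-wide list. Such peaks also lay at Ppargc1a, Ppargc1b and Mfn2. Over the 10 genes, 78 of the 110 replicate 1 peaks with a partner in replicate 2 overlapped a series-wide peak. Between 1.96 and 13.3 kb before the Tfb2m start, over the Cnst model, 5 overlapping pairs had folds from 6 to 8.5 in replicate 1 and from 5.76 to 7.09 in replicate 2.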
